A study of Rattus norvegicus with 20 samples.

Results

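A set of 9 genes listed for cortical and basolateral excitatory neurons was followed in rats of the alcohol-preferring (P) line. The tissue was dissected as the central amygdaloid nucleus. Not every member is particular to such neurons, as set out below. The set was Slc17a7, Slc17a6, Tbr1, Neurod2, Neurod6, Nrgn, Camk2a, Nptx1 and Nptx2, out of 14217 genes named on the array. The members were taken as the probe sets annotated to exactly 1 of these symbols. They were measured by 12 probe sets for 8 of the genes, namely 2 for Slc17a7, 4 for Camk2a and 1 for each of the other genes, while Nptx2 was not analysed here. Where a gene had several probe sets, the one with the highest mean over all 20 arrays is its main value. The tested animals were P rats given access to ethanol at 15% and 30% in adolescence (n = 10), and they were set against P rats given only water (n = 10). Both groups shared the P line, which was bred for high alcohol intake, and the same dissected tissue. The labels used here give neither the sex nor the age in days, and they name no batch. Each animal gave 1 Affymetrix array, whose values are log2 probe set summaries, so that 1 unit is a 2-fold change. Array medians lay between 7.92 and 7.97. The spread between animals is the error throughout. The array of ethanol animal 5 and those of water animals 15 and 18 stood apart by a lower mean correlation with the other arrays (0.988, 0.989 and 0.984, against a limit of 0.990), and all were kept.

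The central nucleus is built mainly from GABAergic neurons related to those of the striatum. The basolateral complex and the cortex beside it are built mainly from excitatory projection neurons. Glutamate is loaded into synaptic vesicles by VGLUT1, encoded by Slc17a7 and typical of cortex, hippocampus and the basolateral complex, or by VGLUT2, encoded by Slc17a6 and typical of thalamus, hypothalamus and brainstem. Tbr1, Neurod2 and Neurod6 encode transcription factors of cortical excitatory neurons. Nrgn and Camk2a encode a postsynaptic calmodulin-binding protein and a calcium/calmodulin-dependent kinase subunit that are abundant in forebrain neurons, and Camk2a is also made by striatal neurons. Nptx1 encodes a secreted pentraxin that gathers AMPA-type glutamate receptors at synapses.

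Neurod2 and Neurod6 proteins are basic helix-loop-helix factors, a class that binds the E-box CANNTG, and NeuroD factors prefer CAGATG, which reads CATCTG on the other strand. The RefSeq promoter windows of the members were read on the rat assembly GRCr8, 300 bases each, around the annotated start of the gene. Windows were found for 8 of the 9 genes, Nptx2 among them and Nptx1 not. The windows of the 4 genes that varied together among animals, and of Slc17a6, which did not vary with them, are printed 5′ to 3′ on the strand of the gene, with each CANNTG in capitals.
Slc17a7: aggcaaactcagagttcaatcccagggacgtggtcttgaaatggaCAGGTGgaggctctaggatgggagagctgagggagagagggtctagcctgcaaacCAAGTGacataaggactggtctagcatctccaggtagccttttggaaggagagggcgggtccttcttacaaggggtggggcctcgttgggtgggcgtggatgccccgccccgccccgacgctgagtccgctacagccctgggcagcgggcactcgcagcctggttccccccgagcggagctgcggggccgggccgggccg
Neurod6: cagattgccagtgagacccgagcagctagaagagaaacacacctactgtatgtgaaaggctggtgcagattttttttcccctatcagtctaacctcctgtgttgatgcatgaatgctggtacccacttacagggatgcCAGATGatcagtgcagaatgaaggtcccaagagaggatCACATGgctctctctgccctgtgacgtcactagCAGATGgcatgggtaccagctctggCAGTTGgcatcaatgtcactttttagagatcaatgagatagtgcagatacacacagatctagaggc
Neurod2: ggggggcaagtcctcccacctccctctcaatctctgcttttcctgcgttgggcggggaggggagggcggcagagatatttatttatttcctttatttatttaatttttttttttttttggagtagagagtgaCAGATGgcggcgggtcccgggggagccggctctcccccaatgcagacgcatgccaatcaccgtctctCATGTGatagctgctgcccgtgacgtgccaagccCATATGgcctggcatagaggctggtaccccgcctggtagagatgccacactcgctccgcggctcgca
Camk2a: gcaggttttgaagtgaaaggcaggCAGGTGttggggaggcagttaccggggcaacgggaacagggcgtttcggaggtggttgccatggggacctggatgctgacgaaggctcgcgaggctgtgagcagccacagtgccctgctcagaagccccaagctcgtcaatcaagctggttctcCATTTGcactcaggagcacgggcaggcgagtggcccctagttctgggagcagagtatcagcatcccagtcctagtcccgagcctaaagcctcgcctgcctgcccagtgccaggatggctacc
Slc17a6: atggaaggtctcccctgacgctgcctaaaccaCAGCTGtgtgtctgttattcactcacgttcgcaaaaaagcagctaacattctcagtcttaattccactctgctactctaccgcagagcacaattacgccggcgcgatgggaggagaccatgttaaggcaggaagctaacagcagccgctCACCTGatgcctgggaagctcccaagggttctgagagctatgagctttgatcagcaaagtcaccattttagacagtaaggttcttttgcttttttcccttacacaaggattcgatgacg
The Slc17a7 window lies at chr1:104785955-104786254 on the plus strand. The Neurod6 window lies at chr4:86180106-86180405 on the minus strand, and the Neurod2 window at chr10:83824228-83824527 on the minus strand. The Camk2a window lies at chr18:56648930-56649229 on the plus strand, and the Slc17a6 window at chr1:110348197-110348496 on the plus strand. CANNTG occurred 4 times in the Neurod6 window, 3 times in that of Neurod2, and 2 times in each of those of Slc17a7, Camk2a and Slc17a6. Of 33469 promoter windows of the same length, 72.1% held at least 1 CANNTG. The narrower CAGATG or CATCTG was found 2 times in the Neurod6 window, starting at -112 and -41 from the gene start, and 1 time in that of Neurod2, at -118. It was not found in the windows of Slc17a7, Camk2a and Slc17a6, while that of Nrgn, a gene outside the 4, held it 2 times, at -204 and -151. Of the 8 windows found, 3 held it. Over all promoter windows 16.6% held it at least 1 time and 1.71% at least 2 times. CAGATG is itself a CANNTG, so these counts overlap. The matches are a description of the letters only.

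The first question was whether the excitatory neuron genes differed between ethanol and water animals. None of the 7 members whose main probe set passed the filter on low values was called at an adjusted p under 0.05 (limma, Benjamini-Hochberg over 18625 probe sets), beside 0.0215% of all probe sets tested. None of the 7 had an unadjusted p under 0.05 either, a level that 12.8% of all probe sets tested reached, 7.37% higher and 5.48% lower with ethanol. The ethanol mean was above the water mean for 4 of the 7 and below it for 3, with a median difference of 0.02. Over all probe sets tested the median difference was 0.0161, and 57.8% had the higher mean with ethanol. The spread between animals was wide for several of the members. Over all 20 animals Slc17a7 spanned a 10.6-fold range, Neurod6 a 17.1-fold range and Slc17a6 a 6.45-fold range. Their residual SDs were above those of 99.9%, 99.9% and 99.4% of the probe sets tested.

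**Figure D1:**
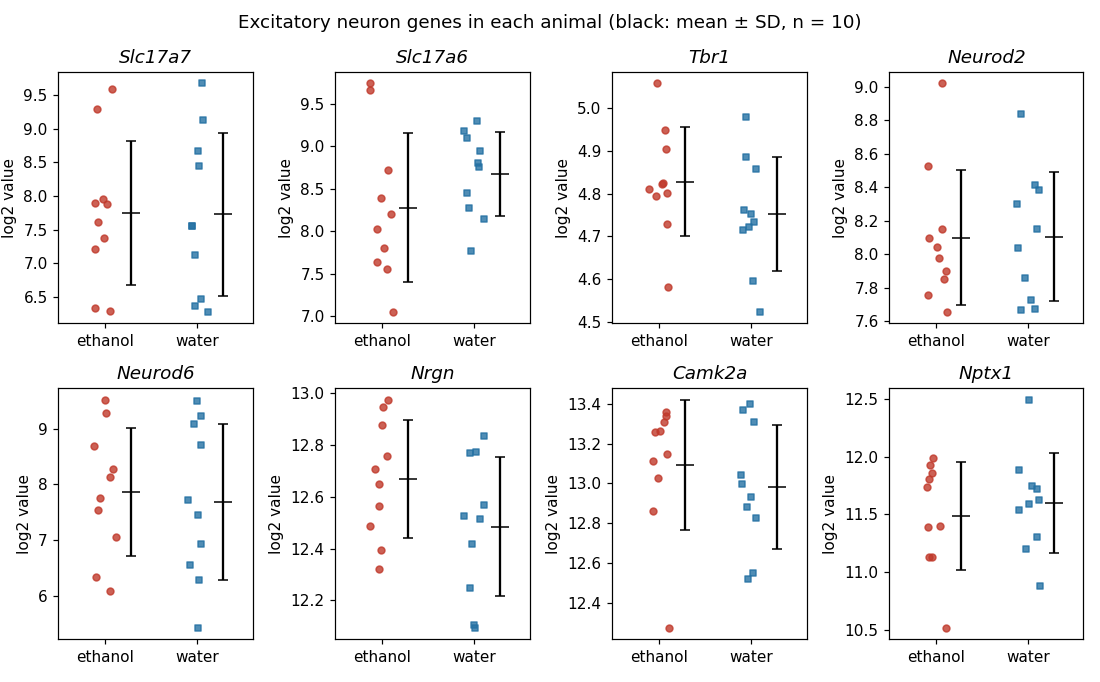
Log2 value of the main probe set of each of the 8 measured genes (vertical axis of each panel, own scale) in ethanol animals (red circles, left) and water animals (blue squares, right), 1 point per animal, with the mean ± SD in black (n = 10 each). The groups overlap in every panel, and Slc17a7 and Neurod6 spread over more than 3 log2 units in both groups.

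Slc17a7, the VGLUT1 gene, was at the same mean level in both groups and varied strongly within each. Its lowest, median and highest log2 values were 6.29, 7.75 and 9.60 in ethanol animals, against 6.28, 7.55 and 9.68 in water animals. The ranges overlapped over nearly their whole length. Means were 7.75 ± 1.08 in ethanol animals and 7.73 ± 1.21 in water animals (SD, n = 10 each), a difference of 0.02 (SE 0.473, 95% interval -0.962 to 1.0, limma adjusted p = 0.991). The interval reaches a 2-fold change upward and, at its lower end, 0.513 times the water level. In bulk tissue, fewer cells of a type and less RNA per cell cannot be told apart. The second probe set of the gene, which lay under the filter, gave 6.21 in ethanol animals and 6.17 in water animals and followed the main one among animals (Pearson r = 0.905).

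Slc17a6, the VGLUT2 gene, had the most negative difference of the 7, and it was within the spread between animals. Its lowest, median and highest values were 7.05, 8.11 and 9.74 in ethanol animals and 7.77, 8.78 and 9.30 in water animals. Both the lowest and the highest animal of all were ethanol animals, and 3 of 10 ethanol animals lay above the water mean. Means were 8.28 ± 0.88 in ethanol animals and 8.67 ± 0.50 in water animals (SD, n = 10 each), a difference of -0.39 (SE 0.296, 95% interval -1.01 to 0.221, limma adjusted p = 0.571).

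Of 8 other genes of glutamate handling, 6 were measured and passed the filter, and none was called (limma, adjusted p under 0.05), while 1 was higher at an unadjusted p under 0.05. That gene was Slc1a1, which encodes the neuronal glutamate transporter EAAC1, with a difference of 0.19 (SE 0.0475, adjusted p = 0.196). Slc1a2, the astrocytic glutamate transporter GLT-1, had a difference of 0.12 (SE 0.0775, adjusted p = 0.502). The median difference of the 6 was -0.0129, against 0.0161 over all probe sets tested.

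Among the transcription factors, Neurod6 had the widest spread of all the members. Its lowest, median and highest values were 6.09, 7.94 and 9.52 in ethanol animals, against 5.42, 7.59 and 9.49 in water animals, so that the groups overlapped. Means were 7.87 ± 1.15 in ethanol animals and 7.69 ± 1.40 in water animals (SD, n = 10 each), with a difference of 0.18 (SE 0.527, 95% interval -0.915 to 1.28, limma adjusted p = 0.911).

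Neurod2 was measured at 7.66, 8.01 and 9.02 in ethanol animals and at 7.67, 8.09 and 8.84 in water animals (lowest, median and highest). The mean was 8.10 in both groups, with SDs of 0.40 in ethanol animals and 0.39 in water animals, and the difference was -0.0076 (SE 0.165, 95% interval -0.349 to 0.334, limma adjusted p = 0.991). Of all the members this one had the difference nearest to 0.

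Tbr1, a T-box factor of deep-layer cortical neurons, was the 1 measured member whose probe set did not pass the filter, with a mean of 4.79 over all animals against a filter value of 7.14. Its values ran over 4.58, 4.82 and 5.06 in ethanol animals and 4.52, 4.74 and 4.98 in water animals (lowest, median and highest). In the fit without a filter, over 31042 probe sets, its difference was 0.08 (SE 0.0587, limma adjusted p = 0.675). Its mean level was above that of only 5.94% of the probe sets on the array.

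Of the 18 other transcription factors listed for cortical excitatory neurons, 15 had a probe set and 12 of these passed the filter. None was called, 1 was lower at an unadjusted p under 0.05, and the median difference was -0.00135. The 1 was Cux1, a homeobox factor of upper-layer neurons, with a difference of -0.0924 (SE 0.0427, limma adjusted p = 0.375). Rorb, a nuclear receptor of layer 4 neurons, had a difference of -0.121 (SE 0.084, limma adjusted p = 0.536).

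Nrgn, or neurogranin, binds calmodulin in dendritic spines. Its lowest, median and highest values were 12.32, 12.68 and 12.98 in ethanol animals and 12.09, 12.52 and 12.83 in water animals. The groups overlapped, and 8 of 10 ethanol animals lay above the water mean. Means were 12.67 ± 0.23 in ethanol animals and 12.48 ± 0.27 in water animals (SD, n = 10 each), with a difference of 0.18 (SE 0.105, 95% interval -0.0344 to 0.402, limma unadjusted p = 0.0944, adjusted p = 0.453). Among the 7 members this was the smallest p.

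Camk2a encodes the alpha subunit of calcium/calmodulin-dependent protein kinase II. On the main probe set its values were 12.27, 13.20 and 13.36 in ethanol animals and 12.52, 12.96 and 13.40 in water animals (lowest, median and highest). A single ethanol animal, number 1, was far below the rest of its group. Means were 13.09 ± 0.33 in ethanol animals and 12.98 ± 0.31 in water animals (SD, n = 10 each), with a difference of 0.11 (SE 0.133, 95% interval -0.165 to 0.389, limma adjusted p = 0.737). The other probe sets of the gene had differences of 0.08 (SE 0.121, adjusted p = 0.793), 0.14 (SE 0.138, adjusted p = 0.684) and, for the dimmest one, which was under the filter, 0.29 (SE 0.132, 95% interval 0.0134 to 0.562). The dimmest probe set had an unadjusted p of 0.0406 and an adjusted p of 0.461 in the fit without a filter, and 9 of 10 ethanol animals were above the water mean. It also followed the main probe set less closely among animals (r = 0.708) than the others did (r = 0.905 and 0.864).

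Of 17 other genes of calmodulin and its kinases and phosphatases, 15 passed the filter and none was called. At an unadjusted p under 0.05, 4 were higher and 0 lower with ethanol, and 14 of the 15 had the higher ethanol mean, with a median difference of 0.0647. Over all probe sets tested 57.8% had the higher ethanol mean and 7.37% were higher at that p, with a median difference of 0.0161. The 15 genes were measured in the same RNA, so their signs are not independent. Camkk1, a kinase that activates other calmodulin kinases, had a difference of 0.20 (SE 0.0625, limma adjusted p = 0.284). Camk1, one of its targets, had a difference of 0.14 (SE 0.0485, limma adjusted p = 0.306).

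Nptx1 was measured at 10.52, 11.57 and 11.99 in ethanol animals and at 10.88, 11.61 and 12.49 in water animals (lowest, median and highest). The lowest value of all was that of ethanol animal 5 and the highest that of water animal 20, and between them the groups overlapped. Means were 11.49 ± 0.47 in ethanol animals and 11.60 ± 0.43 in water animals (SD, n = 10 each), with a difference of -0.11 (SE 0.187, 95% interval -0.497 to 0.279, limma adjusted p = 0.827). All 6 listed partners of the pentraxins, which are the pentraxin receptor Nptxr, the AMPA receptor subunits Gria1 to Gria4 and the protease Adam17, passed the filter, and 0 had an unadjusted p under 0.05. Gria3 had a difference of 0.25 (SE 0.139, limma adjusted p = 0.439) and Adam17 a difference of -0.15 (SE 0.0831, limma adjusted p = 0.438).

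**Figure D2:**
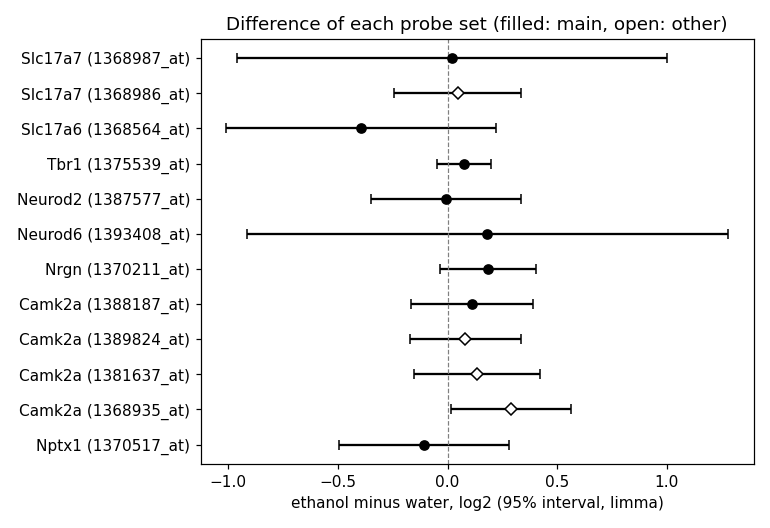
Ethanol minus water difference (horizontal axis, log2) of the 12 probe sets with the 95% interval from limma; filled circles are main probe sets and open diamonds the others, and the dashed line marks 0. The interval of every main probe set includes 0, and those of Slc17a7 and Neurod6 are the widest.

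The arrays fall by accession into 3 consecutive runs, each with both groups, of 4, 4 and 2 animals a group, which no label names as a batch. Within the runs the Slc17a7 difference was 0.207, 0.603 and -1.52, that of Neurod6 was 0.218, 0.843 and -1.22, and that of Neurod2 was 0.193, 0.128 and -0.679. All of these had the higher ethanol mean in both larger runs and the lower one in the run with 2 animals a group, which holds ethanol animal 9, the lowest of its group for each, and water animal 20, the highest of its group for each. Nptx1 had the same order of signs, with 0.0846, 0.131 and -0.977. Camk2a (0.0877, 0.237 and -0.0887) and Nrgn (0.175, 0.385 and -0.201) had that order of signs too, with smaller differences in the last run. Slc17a6 was lower with ethanol in the larger runs, by differences of -0.383 and -0.625, and had a difference of 0.0474 in the last.

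The second question was how the members varied together among animals within groups, since the amount of neighbouring excitatory tissue may differ between dissections. What part such tissue had in these values was not tested. Group means were removed, and Pearson r was tested by permutation within groups (100000 resamples, two-sided, Benjamini-Hochberg over 28 pairs). An adjusted p under 0.05 was reached by 6 pairs, all positive, and these were the 6 pairs among Slc17a7, Neurod6, Neurod2 and Camk2a. The tightest pair was Slc17a7 with Neurod6, at r = 0.971 and Spearman rho = 0.986 over 20 animals. Its permutation p of 1e-05 is the smallest that these resamples can give (adjusted p = 0.00014). The correlation was 0.968 within ethanol animals and 0.975 within water animals, 0.974 with group and run removed, and again 0.971 without the 2 animals farthest from the median of Slc17a7.

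Slc17a7 and Neurod2 had r = 0.931 (rho = 0.922, permutation adjusted p = 0.00014), with 0.935 within ethanol animals and 0.934 within water animals. Neurod2 and Neurod6 had r = 0.862 (rho = 0.899, permutation adjusted p = 0.000187), with 0.851 within ethanol animals and 0.884 within water animals. Removing the run as well gave 0.938 and 0.867 for these pairs, and leaving out the 2 farthest animals gave 0.924 and 0.871. The Slc17a7 values spread without a wide break, the largest gap between neighbouring animals being 0.656 of a range of 3.40. The animals at the ends were shared by the 3 genes: ethanol animals 3 and 8 and water animal 20 were at the top of their groups in all of them, and ethanol animal 9 was the lowest of its group in all of them.

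Camk2a followed the others less closely. It had r = 0.792 with Neurod6 (rho = 0.786, permutation adjusted p = 0.00021) and r = 0.765 with Slc17a7 (rho = 0.771, permutation adjusted p = 0.000616). Within ethanol animals these were 0.684 and 0.66, and within water animals 0.896 and 0.869, and the difference between the groups was not tested. With group and run removed they were 0.809 and 0.777, and without the 2 farthest animals 0.753 and 0.749. Camk2a and Neurod2 had r = 0.604 (rho = 0.635, permutation adjusted p = 0.0455), with 0.493 within ethanol animals and 0.725 within water animals, 0.64 with group and run removed and 0.584 without the 2 farthest animals. That last pair lost the threshold in 14 of the settings tried, 12 of which left out a single animal. The other Camk2a probe sets had r of 0.724, 0.734 and 0.63 with Slc17a7.

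**Figure D3:**
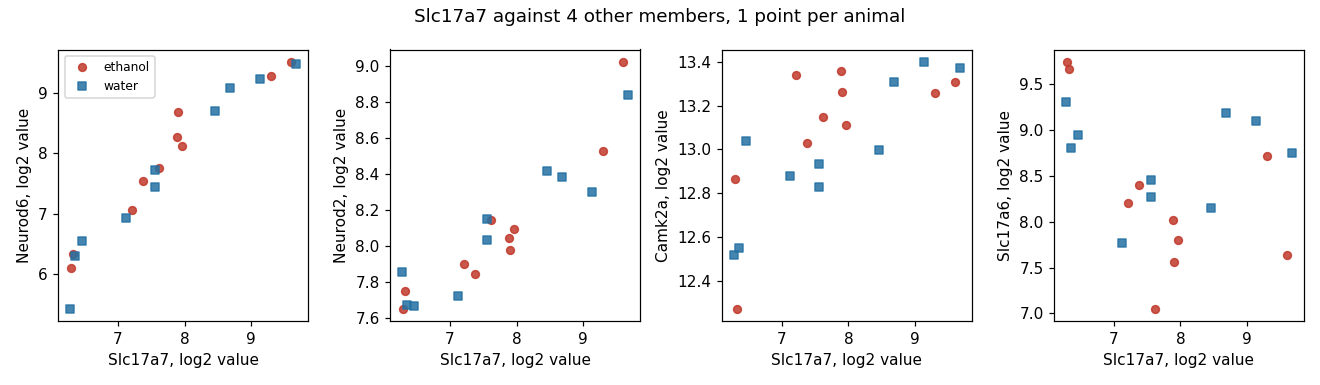
Slc17a7 (horizontal axis, log2 value) against Neurod6, Neurod2, Camk2a and Slc17a6 (vertical axes, log2 value), 1 point per animal, ethanol animals as red circles and water animals as blue squares. Neurod6 climbs with Slc17a7 along 1 line for both groups (r = 0.971), Neurod2 and Camk2a climb with more scatter, and Slc17a6 does not.

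Slc17a6 did not follow this group of genes. Its r was -0.312 with Slc17a7 (rho = -0.338, permutation p = 0.178, adjusted p = 0.357), -0.264 with Neurod2 (adjusted p = 0.53), -0.362 with Neurod6 (adjusted p = 0.254) and -0.395 with Camk2a (adjusted p = 0.254). Ethanol animals 1 and 9, the lowest of their group in Slc17a7 at 6.33 and 6.29, were the highest in Slc17a6 at 9.66 and 9.74, and water animal 17 was the lowest of its group in Slc17a7 at 6.28 and the highest in Slc17a6 at 9.30. Within ethanol animals r of Slc17a6 with Slc17a7 was -0.548, and within water animals it was 0.0153. The most negative pair was Slc17a6 with Nrgn at r = -0.474 (rho = -0.35, permutation p = 0.0314, adjusted p = 0.11), with -0.771 within ethanol animals and -0.108 within water animals. That pair reached the threshold when water animal 18 was left out (r = -0.579, permutation adjusted p = 0.0456) and when the 3 arrays that stand apart were left out (r = -0.706, permutation adjusted p = 0.00882). The last of the 6 most negative pairs was Tbr1 with Nptx1 at r = -0.249 (adjusted p = 0.53), which was 0.0322 without the 2 farthest animals.

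Nrgn and Nptx1 were also outside the group of 4. Nrgn had r = 0.148 with Slc17a7 (adjusted p = 0.695), which was 0.756 within ethanol animals and -0.309 within water animals. Nptx1 had r = 0.379 with Slc17a7 (adjusted p = 0.254). With each other they had r = 0.519 (rho = 0.51, permutation p = 0.0221, adjusted p = 0.0886). Differences of correlations between the groups were not tested.

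**Figure D4:**
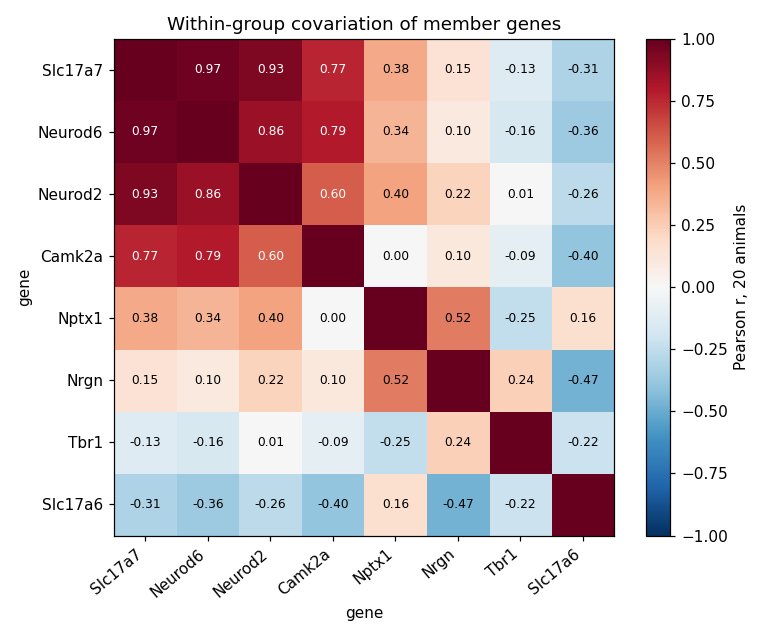
Pearson r among 20 animals, with group means removed, for every pair of the 8 measured genes (both axes list the genes; red is positive and blue negative, from -1 to 1). Slc17a7, Neurod6, Neurod2 and Camk2a form a block of positive values from 0.604 to 0.971, and Slc17a6 has negative values with each of them.

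The members were then set against markers of the tissue and of other cell types. Markers of the central nucleus and its striatal relatives were measured: all 14 central and striatal genes with a probe set passed the filter, as did all 7 GABAergic genes with one. Over the array 18625 of 31042 probe sets passed. All 12 oligodendrocyte, 9 astrocyte and 17 other excitatory genes with a probe set passed as well. Passing the filter therefore does not single out the central nucleus. The enkephalin gene Penk was at 14.6 in ethanol animals and 14.5 in water animals, the kinase gene Prkcd at 9.78 in ethanol animals and 9.62 in water animals, and the GABA-synthesising Gad1 at 14.4 in ethanol animals and 14.3 in water animals. These levels were given after the values were seen. The summed level of each list was the mean of its members past the filter in each animal, and 88 combinations of member and list were tested by permutation as above. An adjusted p under 0.05 was reached by 21, of which 12 were positive and 9 negative. Of these, 10 stayed under it in all 26 alternative settings: those of Slc17a7, Neurod6, Neurod2 and Camk2a with both excitatory lists, that of Camk2a with the diencephalon list and that of Nrgn with the vascular and meningeal list. The strongest were those with other excitatory transcription factors (12 genes, none of them a member) and with other genes listed for excitatory neurons (17 genes). Whether each listed gene is particular to excitatory neurons was not tested. Values were not scaled by gene, so genes with a wide spread weigh most in each mean. Bhlhe22 had SDs of 1.56 in ethanol and 1.67 in water animals, and by itself r = 0.962 with Slc17a7. Cux1 had SDs of 0.102 and 0.0701 and r = -0.44. A high r of the mean is therefore not agreement of every gene in the list. Slc17a7 had r = 0.961 with the transcription factors (rho = 0.935) and 0.927 with the other excitatory genes (rho = 0.911), and Neurod6 had 0.935 (rho = 0.949) and 0.903 (rho = 0.919), all with a permutation adjusted p of 0.000147. Neurod2 had 0.914 (rho = 0.877, permutation adjusted p = 0.000147) and 0.864 (rho = 0.85, permutation adjusted p = 0.000251). Camk2a had 0.869 with the other excitatory genes (rho = 0.883, permutation adjusted p = 0.000147) and 0.762 with the transcription factors (rho = 0.803, permutation adjusted p = 0.00235). Leaving aside that last one, the correlations were between 0.831 and 0.96 within ethanol animals, and within water animals between 0.884 and 0.961. With group and run removed they were between 0.875 and 0.963, and without the 2 farthest animals between 0.808 and 0.944. Camk2a with the transcription factors was lower, at 0.652 within ethanol animals and 0.87 within water animals. It had 0.758 with group and run removed and 0.758 without the 2 farthest animals.

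Single genes of these and 2 other lists, chosen here after their values were seen, followed Slc17a7 closely. Bhlhe22, a helix-loop-helix factor of cortical neurons, had r = 0.962 with it. Nrn1, which encodes the growth-promoting surface protein neuritin, had 0.948, and Fezf2, a zinc finger factor of layer 5 neurons, had 0.947. The 12 transcription factors had a median r of 0.715 with Slc17a7, and the lowest was -0.44, that of Cux1. The 17 other excitatory genes had a median of 0.597, and the lowest was -0.461, that of Mpped1. From the pentraxin partners, Nptxr had r = 0.958 beside a median of 0.508 over the 6 genes of its list, whose lowest was -0.496. From the activity-induced genes, Bdnf, the neurotrophin, had r = 0.939, beside a median of 0.416 over the 12 genes of its list, whose lowest was 0.0992. Of the 12 transcription factors 4, and of the 17 other excitatory genes 4, had r above 0.8 with Slc17a7, as did 61 of 10158 genes past the filter (0.601%). Lamp5, which had a difference of 0.20 with ethanol (SE 0.0673, limma adjusted p = 0.289), had r = -0.315 with Slc17a7. The other excitatory list had no gene called between ethanol and water, with 2 of 17 higher at an unadjusted p under 0.05, 0 lower and a median difference of 0.11. Those were Lamp5 and the calcium sensor Vsnl1 (difference 0.14, SE 0.0452, limma adjusted p = 0.284). Of all probe sets tested, 7.37% were higher at that p, and the median difference was 0.0161. The mean level of the other excitatory list was 11.21 ± 0.243 in ethanol animals and 11.14 ± 0.287 in water animals (SD, n = 10 each).

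Camk2a also varied with activity-induced genes, the immediate early genes and their relatives, at r = 0.816 (rho = 0.639, permutation adjusted p = 0.0032), with 0.926 within ethanol animals and 0.689 within water animals. With group and run removed it was 0.866. Ethanol animal 1 was the lowest in both, and without it r was 0.667 (permutation adjusted p = 0.034). Without the 2 animals farthest from the median of Camk2a r was 0.606 (permutation adjusted p = 0.11). Slc17a7 (r = 0.598, rho = 0.723, permutation adjusted p = 0.0158) and Neurod6 (r = 0.588, rho = 0.693, permutation adjusted p = 0.0136) also passed the threshold with these genes. Within ethanol animals these were 0.628 and 0.63 and within water animals 0.649 and 0.642, and without the 2 farthest animals neither passed (adjusted p = 0.0785 and 0.0714). Bdnf, a wide-spread gene of this mean (SD 1.04 in ethanol and 1.08 in water animals), by itself had r = 0.939 with Slc17a7. Fos had 0.29 and Arc 0.364, and 4 of the 12 genes were above 0.5. How much Bdnf adds to these correlations was not tested. Of 12 activity-induced genes none was called between ethanol and water and 1 was higher at an unadjusted p under 0.05, the phosphatase gene Dusp1 (difference 0.47, SE 0.153, limma adjusted p = 0.284). Nr4a3, an orphan nuclear receptor, had a difference of -0.48 (SE 0.241, limma adjusted p = 0.404). The median difference of the list was 0.0192.

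The mean of the central and striatal markers had no Pearson correlation past the threshold with any member, and its genes went both ways with Slc17a7. Its r was 0.0532 with Slc17a7 (rho = 0.015, permutation adjusted p = 0.874), -0.0732 with Neurod2, 0.101 with Neurod6 and 0.514 with Camk2a (rho = 0.335, adjusted p = 0.0828). With Nptx1 its r was -0.522 (permutation adjusted p = 0.0819), while rho = -0.592 passed the threshold (permutation adjusted p = 0.0446). Single genes of the list were negative with Nptx1 for 11 of 14, and 5 were below -0.5. Of 10158 genes past the filter, 5116 were negative with Nptx1 and 819 were below -0.5. Taken one by one, 8 of the 14 had a positive r with Slc17a7 and 6 a negative one, between -0.581 for Isl1 and 0.645 for Foxp2, both transcription factor genes picked out after their values were seen. With Camk2a 12 of 14 were positive, 7 of them above 0.5 (median 0.52), and the mean of the list had r = 0.651 within ethanol animals and 0.331 within water animals. Of 10158 genes past the filter, 4319 were positive with Camk2a and 7.57% were above 0.5. The r of the list mean with Camk2a was 0.212 without the 2 farthest animals, and as low as 0.245 when 1 animal was left out. The mean level of the central and striatal list was 10.60 ± 0.268 in ethanol animals and 10.46 ± 0.202 in water animals, and 12 of its 14 genes had the higher ethanol mean, with a median difference of 0.153 and 0 at an unadjusted p under 0.05. A higher ethanol mean was found for 57.8% of all probe sets tested. Pde10a, a striatal phosphodiesterase, had a difference of 0.23 (SE 0.123, limma adjusted p = 0.43), and Rasd2, a small GTPase of striatal neurons, had 0.22 (SE 0.132, limma adjusted p = 0.477). The summed level of the GABAergic list had r = 0.449 with Slc17a7 (permutation adjusted p = 0.125), while rho = 0.591 passed the threshold (permutation adjusted p = 0.0438). With Neurod6 it had r = 0.491 (permutation adjusted p = 0.0874), and rho = 0.629 passed too (permutation adjusted p = 0.0264). The genes of the list disagreed. With Slc17a7 r was 0.859 for the neuropeptide gene Vip, which was picked out after its value was seen. It was -0.632 for Gad2, a second GABA-synthesising enzyme, and -0.623 for Slc32a1, the vesicular GABA transporter. Gad2 had a difference of 0.15 with ethanol (SE 0.0935) and Slc32a1 one of 0.11 (SE 0.0713), both with a limma adjusted p of 0.495. The median difference of the GABAergic list was 0.0526, while its mean level was lower in ethanol animals, at 10.40 ± 0.121 against 10.47 ± 0.137 in water animals.

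The mean of the diencephalon markers past the filter had a positive correlation with Slc17a6. Its correlations with Slc17a7, Neurod6, Neurod2 and Camk2a were negative, and that with Camk2a was past the threshold in every setting. Of 13 listed, all had a probe set but only 4 passed the filter: Tcf7l2, Prox1, Nkx2-1 and Avp. The mean therefore rests on these 4 genes and not on the list as a whole. Their mean had r = 0.702 with Slc17a6 (permutation adjusted p = 0.0158, rho = 0.546 with an adjusted p of 0.0714), with 0.869 within ethanol animals, 0.138 within water animals, 0.723 with group and run removed and 0.508 without the 2 farthest animals. It had -0.654 with Slc17a7 (rho = -0.648, permutation adjusted p = 0.00829), -0.663 with Neurod6 (rho = -0.635, adjusted p = 0.0032), -0.633 with Neurod2 (rho = -0.586, adjusted p = 0.0265) and -0.692 with Camk2a (rho = -0.764, adjusted p = 0.0136). The negative correlations were between -0.736 and -0.675 within ethanol animals and between -0.798 and -0.626 within water animals. With group and run removed they were between -0.773 and -0.55, and without the 2 farthest animals between -0.628 and -0.467. Those of Slc17a7, Neurod6 and Neurod2 were lost with group and run removed (adjusted p = 0.0938, 0.0753 and 0.123) and without the 2 farthest animals (adjusted p = 0.115, 0.0638 and 0.181). That of Slc17a6 was lost in the same settings (adjusted p = 0.145 and 0.191). It was also lost without ethanol animal 1 (r = 0.658, adjusted p = 0.0515) and without ethanol animal 9 (r = 0.564, adjusted p = 0.0746). That of Neurod2 was also lost without ethanol animal 1 (r = -0.609, adjusted p = 0.0515) and without water animal 20 (r = -0.58, adjusted p = 0.0866). The mean of the oligodendrocyte markers had the same signs, with r = 0.548 for Slc17a6 and -0.488 for Slc17a7, neither past the threshold. Whether the diencephalon mean reads out diencephalic tissue was not tested. Mean levels of the diencephalon list were 8.87 ± 0.253 in ethanol animals and 8.95 ± 0.132 in water animals. None of the 4 genes was called between groups, 1 was lower at an unadjusted p under 0.05 and the median difference was -0.121. Prox1, a homeobox factor, had a difference of -0.36 (SE 0.124, limma adjusted p = 0.297), and Tcf7l2, a thalamic Wnt pathway factor, had -0.22 (SE 0.111, limma adjusted p = 0.402).

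Among glial and vascular lists, oligodendrocyte markers had a mean level of 12.32 ± 0.485 in ethanol animals against 12.68 ± 0.397 in water animals (SD, n = 10 each). All 12 had the lower ethanol mean, 5 of them at an unadjusted p under 0.05, none was called, and the median difference was -0.359. Of all probe sets tested, 57.8% had the higher ethanol mean and 5.48% were lower at that p. Bcas1, a marker of myelinating cells, had a difference of -0.45 (SE 0.177, limma adjusted p = 0.323), and Sox10, a factor of the oligodendrocyte lineage, had -0.34 (SE 0.139, limma adjusted p = 0.338). The mean of the list had r = -0.488 with Slc17a7 (rho = -0.478, adjusted p = 0.0874) and 0.548 with Slc17a6 (rho = 0.523, adjusted p = 0.0738), neither past the threshold. Taken one by one, 12 of 12 had a negative r with Slc17a7 (median -0.491) and 12 of 12 a positive r with Slc17a6 (median 0.54). Of 10158 genes past the filter, 6107 were negative with Slc17a7 and 5038 positive with Slc17a6. The 12 genes were measured in the same RNA, so their signs are not independent. The correlations of the list mean past the threshold were those with Neurod2 (r = -0.61, rho = -0.511, adjusted p = 0.0287) and Nrgn (r = -0.57, rho = -0.559, adjusted p = 0.0435). Within ethanol animals these were -0.732 and -0.763, within water animals -0.459 and -0.391, with group and run removed -0.53 and -0.376, and without the 2 farthest animals -0.297 and -0.457. Both calls were lost with group and run removed (adjusted p = 0.218 and 0.407), without the 2 farthest animals (adjusted p = 0.532 and 0.256) and by Spearman rho (adjusted p = 0.0837 and 0.0551). Leaving out 1 animal took the adjusted p of Neurod2 above the threshold for 4 animals, up to 0.165 without ethanol animal 3, and that of Nrgn for 13 animals, up to 0.114 without the same animal. With the oligodendrocyte mean as a covariate the difference of Slc17a7 was -0.435 and that of Neurod6 -0.286, neither of them called. How far the makeup of the samples enters the differences between ethanol and water animals was not tested beyond this.

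Nrgn was lower where vascular and meningeal markers were higher, at r = -0.749 (rho = -0.759, permutation adjusted p = 0.00099), with -0.603 within ethanol animals, -0.839 within water animals, -0.758 with group and run removed and -0.628 without the 2 farthest animals. Nptx1 had r = -0.626 with the same markers (rho = -0.424, adjusted p = 0.0195) and -0.574 with choroid plexus and ependyma markers (rho = -0.362, adjusted p = 0.0435). Within ethanol animals these were -0.614 and -0.685, within water animals -0.665 and -0.473, with group and run removed -0.613 and -0.631, and without the 2 farthest animals -0.4 and -0.265. Neither call of Nptx1 was kept with group and run removed (adjusted p = 0.133 for each), by Spearman rho (adjusted p = 0.135 and 0.237), or without the 2 farthest animals (adjusted p = 0.278 and 0.558). Without the 3 arrays that stand apart r was -0.164 and -0.0863 (adjusted p = 0.66 and 0.832). Without ethanol animal 5 alone they were -0.495 (adjusted p = 0.161) and -0.382 (adjusted p = 0.267), and without water animal 18 alone -0.531 (adjusted p = 0.088) and -0.489 (adjusted p = 0.108). The call with the choroid plexus and ependyma markers was lost on leaving out any of 12 single animals, and with cyclic loess (adjusted p = 0.0502). The mean level of the vascular and meningeal list was 8.93 ± 0.279 in ethanol animals and 9.15 ± 0.417 in water animals, and that of the choroid plexus and ependyma list was 7.77 ± 1.49 in ethanol animals and 9.18 ± 1.68 in water animals. Astrocyte markers were at 12.72 ± 0.0976 in ethanol animals and 12.86 ± 0.093 in water animals, while microglia markers were at 9.27 ± 0.0549 in ethanol animals and 9.29 ± 0.0944 in water animals. None of the combinations of a member with the astrocyte or the microglia list reached the threshold. No gene of these 4 lists was called between ethanol and water, and at an unadjusted p under 0.05 the numbers lower with ethanol were 1 of 11 vascular and meningeal, 2 of 4 choroid plexus and ependyma, 2 of 9 astrocyte and 1 of 9 microglia genes, with 0 higher in any of them. Of all probe sets tested, 5.48% were lower and 7.37% higher at that p. The astrocyte filament gene Gfap had a difference of -0.51 (SE 0.165, limma adjusted p = 0.284) and the folate enzyme gene Aldh1l1 one of -0.28 (SE 0.096, adjusted p = 0.295). The microglial genes Tmem119 and Itgam had -0.115 and 0.152 (adjusted p = 0.334 and 0.409). Pdgfrb, a receptor of pericytes, had -0.26 (SE 0.0745, limma adjusted p = 0.239) and the collagen gene Col1a2 had -0.57 (SE 0.277, adjusted p = 0.391). The ciliary genes Tmem212 and Foxj1 had -1.08 and -0.54 (adjusted p = 0.313 and 0.354).

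**Figure D5:**
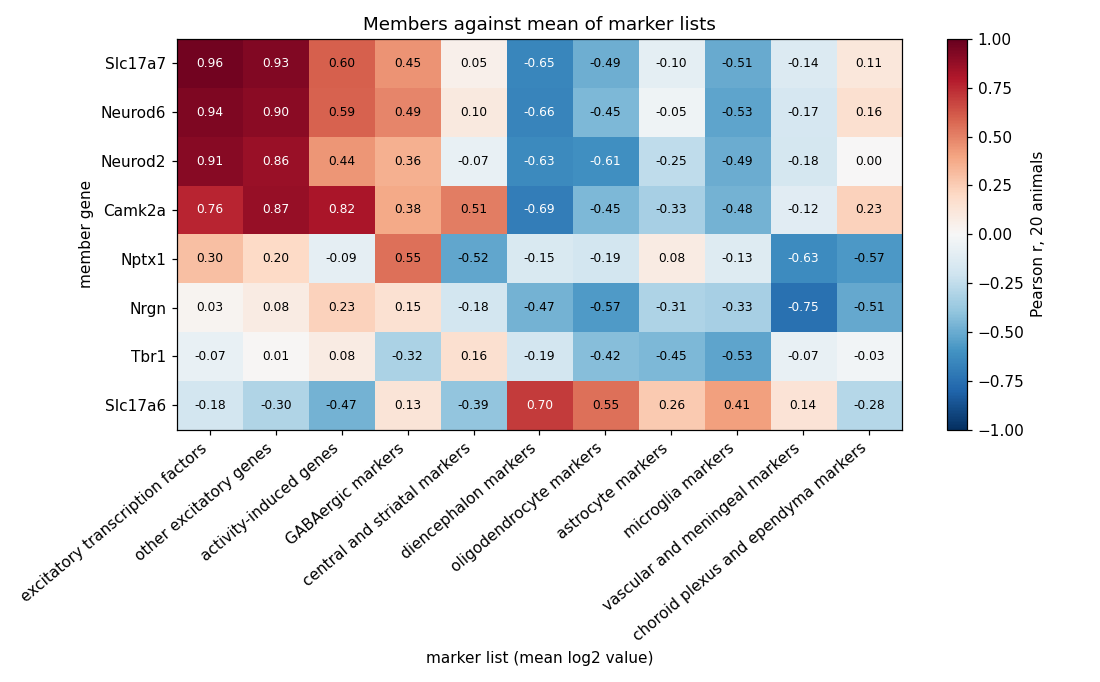
Pearson r among 20 animals, with group means removed, of each measured gene (vertical axis) with the mean log2 value of each marker list (horizontal axis; red is positive and blue negative, from -1 to 1). Slc17a7, Neurod6, Neurod2 and Camk2a have values from 0.762 to 0.961 with both excitatory lists and negative values with the diencephalon list, where Slc17a6 has 0.702.

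For each member the 3 genes with the most similar pattern over the 20 animals were taken from 10159 genes past the filter, by Pearson r with group means removed, as a description without a test. For Slc17a7 they were Slc30a3 (r = 0.975), the gene of the vesicular zinc transporter ZnT3, Neurod6 (0.971) and Olfm1 (0.963), which encodes a secreted olfactomedin. For Neurod6 they were Slc17a7 (0.971), Slc30a3 (0.962) and Bhlhe22 (0.933). For Neurod2 they were Nptxr (0.952), the phosphatase gene Ptpn3 (0.932) and Slc17a7 (0.931). Slc17a7 and Neurod6 were thus among each other's nearest genes, and Slc17a7 was among those of Neurod2.

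The neighbours of the other members held none of the 9 genes. For Camk2a they were the sialyltransferase gene St6galnac5 (0.939), the synaptic scaffold gene Cnksr2 (0.921) and Ankrd33b (0.916). For Nrgn they were Pkia (0.92), an inhibitor of protein kinase A, Thra (0.917), a thyroid hormone receptor, and the long noncoding RNA Tug1 (0.913). For Nptx1 they were Spon1 (0.906), which encodes F-spondin, the cyclin-dependent kinase gene Cdk14 (0.903) and Tshz2 (0.895), a zinc finger factor. For Slc17a6 they were Hapln4 (0.843), a link protein of the perineuronal matrix, Ass1 (0.837), an enzyme of arginine synthesis, and Tm6sf1 (0.833). For Tbr1, whose values lay near the bottom of the scale, they were B4galt4 (0.773), Lipt2 (0.754) and Abraxas2 (0.752), the lowest values of the 8 members.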

How the data were processed

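Trizol and then RNeasy were used for total RNA of the dissected nucleus, and labelling followed the 3' IVT Express kit, per the labels' protocols. The authors deposited log2 summaries of probe sets, made with RMA (robust multi-array average, version not given in the sources used here), per the submitters' processing notes. The table held 31099 probe sets, of which 57 were controls and 20826 carried exactly 1 gene symbol. A filter at the 40th percentile of the mean over the 20 arrays (log2 7.14) left 18625. Groups came from the labels. Separate animals are the replicates.

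The group difference, ethanol minus water, came from limma 3.58.1 in R 4.3.3 (lmFit, then eBayes). Tests were two-sided, p-values were adjusted by Benjamini-Hochberg over all probe sets tested, and the threshold was 0.05. Members under the filter were taken from the fit without one. The median SE of a difference was 0.0624, and 10 arrays a group limit the precision. Covariation was computed in Python 3.11.15 with numpy 2.4.6, pandas 2.3.3 and scipy 1.17.1, as Pearson r of deviations from the group mean, permuted within groups. Figures used matplotlib 3.10.9. Both scripts were tested on simulated data. Arrays stood apart where their mean correlation was over 3 scaled median absolute deviations below the median. Promoter windows came from RefSeq (GRCr8), and gene chromosomes from the same assembly.

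The members and gene lists were chosen with earlier results of these data known. Named genes were all members, the 2 genes of each list with the smallest p, the 6 member pairs with the largest absolute r of each sign, the 3 nearest genes of each member and the 8 strongest combinations of a member with a list. Others are marked as chosen after their values were seen or were past the threshold. The alternatives were no filter, a 60th percentile filter, median centring, cyclic loess, array weights, trend and robust eBayes, the accession run as a term, 3 marker means as covariates, 1 probe set per gene, a threshold of 0.10, Spearman rho, and leaving out each animal, the arrays that stand apart, or the 2 farthest animals.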

Additional observations from a re-analysis of the deposited data

Results flagged for a closer look

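In 6 of 46 groups of 10 values the end animal lay farther from its neighbour than Dixon's 95% critical value allows, a gap that chance gives in about 1 in 20 groups. Ethanol animal 1 had a Camk2a value of 12.27 on the main probe set, with the next animal at 12.86. The same animal had 9.958 on the second Camk2a probe set, with the next at 10.55, and 9.653 on the third, with the next at 10.24. Its mean of activity-induced genes was 8.60, with the next animal at 9.93. Ethanol animal 5, whose array stood apart, had a mean of vascular and meningeal markers of 9.622, with the next animal at 9.14, and a mean of choroid plexus and ependyma markers of 11.46, with the next at 8.92. The probe sets of Camk2a measure 1 gene in the same RNA, so these flags are not independent. What sets these animals apart was not tested.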

How the results depend on the processing

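In limma, 0 of the tested members were called in any setting run, also at an adjusted threshold of 0.10, while the number called over all probe sets ran from 0 to 23. The smallest adjusted p of a member in any setting was 0.326, for Nrgn. Differences near 0 changed sign without being called. Slc17a7 had -0.0156 with the central and striatal mean as a covariate, -0.252 with the mean of other excitatory genes, -0.435 with the oligodendrocyte mean, and -0.185 to 0.237 when 1 animal was left out. Neurod2 had 0.0721 with array weights, 0.00944 with the central and striatal mean, 0.0445 without the arrays that stand apart, and -0.11 to 0.0741 when 1 animal was left out. Neurod6 had -0.116 with the other excitatory mean, -0.286 with the oligodendrocyte mean, and -0.0713 to 0.38 when 1 animal was left out. Camk2a had -0.00514 with the oligodendrocyte mean, and Nptx1 had 0.0288 with the central and striatal mean. A filter at the 60th percentile left Slc17a7, Slc17a6, Neurod2 and Neurod6 untested. The count of member pairs past the threshold was 5 to 7 when 1 animal was left out. The pair of Neurod2 with Camk2a was past the threshold in only part of the settings. Tbr1 with Nptx1 had r = 0.0322 without the 2 farthest animals. The 21 combinations of member and list were 10 without the 2 farthest animals, 14 with the run removed, 29 without the arrays that stand apart, and 18 to 25 when 1 animal was left out, and 10 of them passed in every setting. The cause of these changes was not tested. No paired analysis was possible because the groups share no animal number.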
